A study of Peromyscus maniculatus with 16 samples.

Results

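Cytochrome P450 genes of families 1 to 4 were followed in the liver of the deer mouse, Peromyscus maniculatus. They are every gene of the count table whose name begins with Cyp, a family number from 1 to 4, a subfamily letter and a number. This gave 29 of the 16910 genes, from 19 subfamilies, with 3 genes of family 1, 14 of family 2, 1 of family 3 and 11 of family 4. Of these, 28 passed the filter of at least 0.5 CPM (counts scaled to a common library size) in at least 1 animal and were tested among 12639 genes. Cyp4f39 had 1 count in all animals together and was not tested. The symbols are those of the mouse, and P450 genes under other symbols were not analysed here.

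P450 enzymes are haem proteins of the endoplasmic reticulum that insert 1 oxygen atom into their substrate, with electrons delivered by P450 oxidoreductase (Por) and, in part, by cytochrome b5. In the liver, families 1 to 3 oxidize drugs, toxicants, steroids and fatty acids, and family 4 hydroxylates fatty acids and eicosanoids at or near the end of the chain. Their transcription is set by ligand-activated factors: the aryl hydrocarbon receptor for family 1, CAR (Nr1i3) and PXR (Nr1i2) for much of families 2 and 3, and PPAR-alpha (Ppara) for the Cyp4a genes. Several are restricted to one zone of the lobule, such as Cyp2e1 and Cyp1a2 around the central vein and Cyp2f2 around the portal tract.

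The livers came from 16 outbred deer mice aged 10 months. The regular diet group (C) held 6 males. The other 10 animals were kept for 28 weeks on a diet rich in fat (58 kcal%) and sucrose (HFD), and of these 5 showed no steatosis on histology (NS) and 5 did (S). NS held 5 males, and S held 2 males and 3 females. Each group held 1 animal of the SM2 stock (P. maniculatus sonoriensis) and the remaining 13 animals were of the BW stock (P. maniculatus bairdii), which are both closed colonies bred from wild-caught founders. Animals are named here by group and a number given in order of deposit, C1 to C6, NS1 to NS5 and S1 to S5. C1, NS1 and S1 are the SM2 animals and S2, S4 and S5 are the females. Steatosis was scored after the diet and was not assigned, and because all females are in S, sex cannot be told apart from steatosis in part of the comparisons.

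Libraries held 4640733 to 11349971 counts, and the smallest were those of S3 (4640733) and S2 (4865756). Hepatocyte markers, 10 of 14 of them in the table, summed to 61840 to 88910 CPM in C, 62950 to 89690 in NS and 50190 to 69250 in S. The BW animals of S, at 50190 to 56940 CPM, lay below every C and NS animal, and S1 was at 69250 CPM. Of these markers, 1 (Hp) was called lower in S vs C and 0 higher, beside 0.965% and 3.09% of all genes. At an adjusted p under 0.1, whatever the fold, 3 were lower (Hp, Fgb and Ttr) and 1 was higher (Apoa1), beside 5.36% and 5.39%. S3 stands apart from the rest. Its Col1a1, a collagen gene of activated stellate cells, was at 2057 CPM against 3.26 to 17.0 in the other 15 animals, and the 10 stellate cell markers summed to 3504 CPM against 229.5 to 583.6. Most of that sum was Col1a1 and a further collagen gene, Col1a2, at 1059 CPM in S3 against 13.1 to 47.0 in the other animals. In S vs C these 2 of the 10 were called higher and 1, Dcn, was called lower, beside 3.09% and 0.965% of all genes. Kupffer cell markers, 9 of 10 in the table, summed to 323.1 to 655.9 CPM in C, 259.0 to 649.6 in NS and 176.5 to 1182 in S, highest in S5. None of the listed markers in the table of these 3 cell types was at 0 throughout a group. Neutrophil and monocyte markers, 6 of 10 in the table, summed to 27.0 to 76.7 CPM in C, 10.4 to 56.5 in NS and 4.80 to 24.9 in S, so that C and S do not overlap. Of these, S100a8 and S100a9 were called lower in S vs C, and Elane was at 0 in every C animal. The part of these 4 cell types in the results was not tested. In whole liver, fewer cells of a type and less RNA per cell cannot be told apart.

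P450 transcripts took a smaller mean share of the liver library in both HFD groups than in C. The 29 genes together held 4.14% ± 0.585 of the counts in C (SD, n = 6), 3.41% ± 0.556 in NS (n = 5) and 3.10% ± 0.558 in S (n = 5). The single animals ran from 3.26 to 4.98% in C, from 2.44 to 3.78% in NS and from 2.56 to 3.78% in S, so that the groups overlap. Cyp2e1, the ethanol-oxidizing P450, held 47.0 to 71.2% of the P450 counts of an animal. Without Cyp2e1 the means were 1.53% ± 0.0939 in C, 1.21% ± 0.104 in NS and 1.21% ± 0.266 in S. In BW animals alone they were 4.32% ± 0.441 in C (n = 5), 3.65% ± 0.145 in NS (n = 4) and 2.97% ± 0.551 in S (n = 4). No test was made of these sums.

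**Figure D1:**
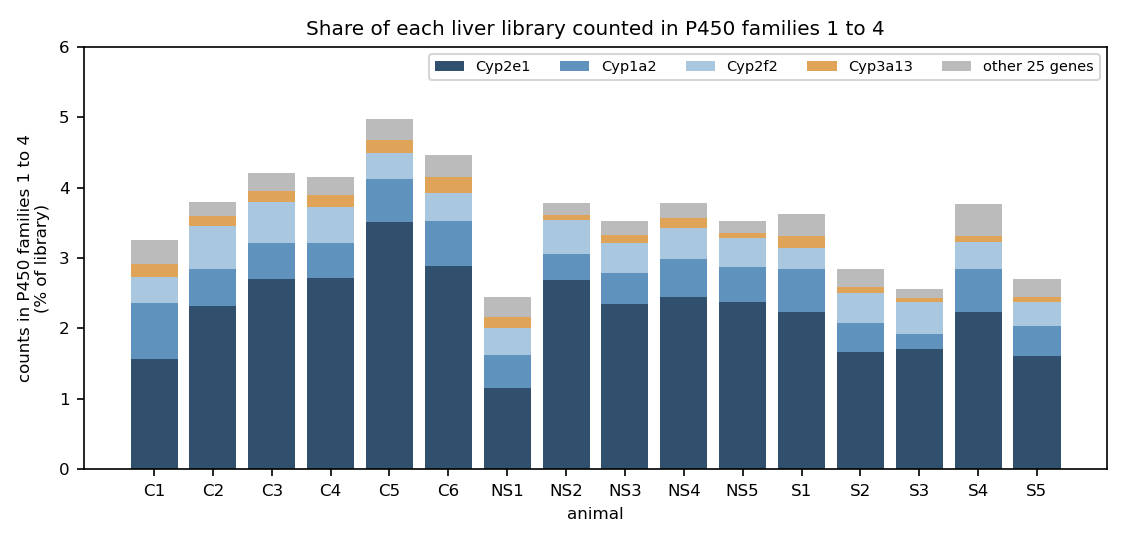
Share of each liver library (% of its counts) held by Cyp2e1, Cyp1a2, Cyp2f2, Cyp3a13 and the other 25 genes, 1 bar per animal. The lowest bar of C (C1, 3.26%) and the lowest of NS (NS1, 2.44%) are SM2 animals, and the highest bar of all is C5 at 4.98%. S1, the remaining SM2 animal, is at 3.62%, above S2, S3 and S5.

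The comparison of S with C asks which P450 genes differ between fatty livers on HFD and livers on regular diet. Cyp3a13 and Cyp2d22 fell in S and Cyp1a1 rose. These are 3 of 28 genes (10.7%), called in edgeR's quasi-likelihood test where the adjusted p was under 0.1 and the level at least 2 times higher or lower, beside 4.06% of all tested genes. By direction, 2 of 28 fell beside 0.965% of all genes, and 1 of 28 rose beside 3.09%. At the adjusted p limit alone, whatever the fold, 5 of 28 passed beside 10.8% of all genes, 3 of them lower (5.36% of all genes) and 2 higher (5.39%). The 2 added genes are Cyp2f2, lower in S, and Cyp2j13, higher in S. Of the 28 genes, 17 had a log2 fold change below 0, with a median of -0.13 beside 0.10 for all genes. At an unadjusted p under 0.05 there were 10 of 28 beside 23.8% of all genes.

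Cyp3a13 is the member of the Cyp3a subfamily in this table, and Cyp3a enzymes oxidize a wide range of drugs and steroids. Its level in C ran from 1417 to 2763 CPM with a median of 1894. In NS it was 1460, 836.5, 949.8, 1667 and 797.6 CPM from NS1 to NS5, and in S it was 1731, 809.0, 477.1, 881.3 and 618.0 CPM from S1 to S5. All 4 BW animals of S lie below every C animal, and the SM2 animal S1 lies within the range of C. The means were 1951 ± 446.8 CPM in C (SD, n = 6), 1142 ± 395.3 in NS and 903.2 ± 489.1 in S. The log2 fold change was -1.11 ± 0.30 (SE) in S vs C, at an edgeR adjusted p of 0.0485. NS vs C gave -0.77 ± 0.29, at an edgeR adjusted p of 0.525. In BW animals alone S vs C was -1.50 ± 0.27, at an edgeR adjusted p of 0.0129. The call in all animals was lost without C6 (edgeR adjusted p 0.111), and without S3 the log2 fold change of -0.95 was under the fold limit (edgeR adjusted p 0.0994).

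Cyp2d22, the gene of the drug-oxidizing Cyp2d subfamily in the table, had a low count (26 to 441 per animal). In C it ran from 12.3 to 43.4 CPM with a median of 16.1, and the highest value is that of the SM2 animal C1. It was 13.6, 10.8, 9.38, 11.3 and 6.38 CPM in NS1 to NS5 and 13.5, 4.82, 7.13, 8.46 and 8.39 CPM in S1 to S5. Among BW animals, every NS and every S animal lies below every C animal. S vs C gave a log2 fold change of -1.25 ± 0.33, at an edgeR adjusted p of 0.0452, and -1.11 ± 0.22, at 0.022, in BW animals alone. Without C1 it was -0.88, under the fold limit, at an edgeR adjusted p of 0.0675.

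Cyp1a1, which oxidizes polycyclic aromatic hydrocarbons and is the classical target of the aryl hydrocarbon receptor, was close to the detection limit, with 3 to 57 counts per animal. It was at 0.333 to 1.80 CPM in C, with a median of 1.16. The NS animals had 5.17, 1.66, 5.63, 2.18 and 1.36 CPM and the S animals 3.41, 5.00, 2.44, 1.40 and 3.62 CPM. NS2, NS5 and S4 lie within the range of C, and the other 7 animals on HFD lie above its highest animal, C4. The log2 fold change was 1.51 ± 0.47 in S vs C (edgeR adjusted p 0.0747) and 1.53 ± 0.47 in NS vs C (edgeR adjusted p 0.402). Cyp1a2, the other gene of the subfamily and abundant in hepatocytes, did not pass and had values in the other direction. Its means were 6444 ± 1339 CPM in C, 4729 ± 923.2 in NS and 4198 ± 1715 in S, with a log2 fold change of -0.62 ± 0.25 in S vs C (edgeR adjusted p 0.148). The lowest animal was S3 at 1856 CPM.

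**Figure D2:**
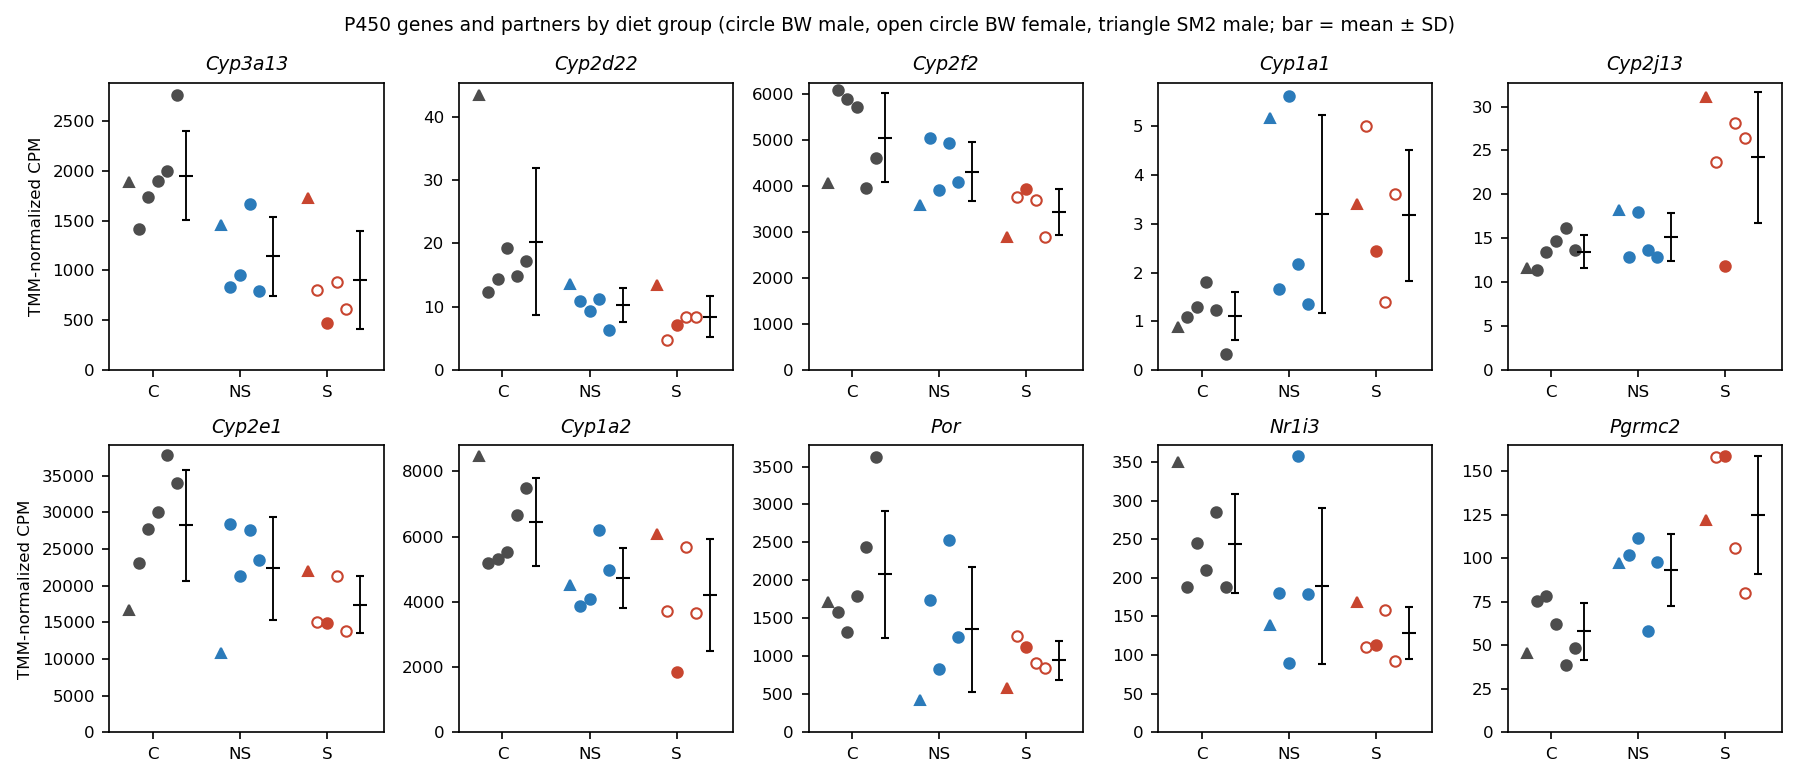
TMM-normalized CPM of 7 P450 genes and of Por, Nr1i3 and Pgrmc2 in every animal by diet group (C, NS, S), with circles for BW males, open circles for BW females, triangles for SM2 males and a bar for the mean ± SD of each group. The BW animals of S lie below every C animal for Cyp3a13, Cyp2d22 and Cyp2f2, and 7 of 10 HFD animals lie above every C animal for Cyp1a1.

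Cyp2f2, a periportal enzyme that activates naphthalene in rodents, was the gene with no overlap between S and C. It ran from 3957 to 6087 CPM in C with a median of 5170, and was 2888, 3774, 3942, 3699 and 2904 CPM in S1 to S5. NS lay between and overlapped both, at 3586, 5061, 3914, 4933 and 4095 CPM. Every S animal lies below every C animal, as in 2.33% of all tested genes, while 4.19% did not overlap in one direction or the other. The log2 fold change of -0.56 ± 0.16 (edgeR adjusted p 0.0614) is under the fold limit. Of the 17 periportal genes in the table, a list that includes Cyp2f2, 4 were lower in S at the adjusted p limit alone (Cyp2f2, Ass1, Arg1 and Gls2) and 1 was higher (Apoa4), beside 5.36% of all genes lower and 5.39% higher, and the median log2 fold change was -0.28 beside 0.10 for all genes. Of 18 pericentral genes other than P450, 3 were lower at that limit and none was higher, with a median of 0.05.

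Cyp2e1 did not pass in S vs C. It was 16680 to 37820 CPM in C, with a median of 28900, and 22030, 15020, 14890, 21310 and 13840 CPM in S1 to S5. NS1, an SM2 animal, had the lowest value of all at 10880 CPM, and NS2 to NS5 had 28360, 21400, 27650 and 23570 CPM. The log2 fold change was -0.70 ± 0.25 in S vs C (edgeR adjusted p 0.111). When only BW animals were set side by side, S lay wholly below C in 5 of 28 genes (Cyp2f2, Cyp2e1, Cyp2d22, Cyp3a13 and Cyp1b1) and wholly above it in none. Of all tested genes, 5.03% lay wholly below and 3.81% wholly above, 8.84% in either direction. The S animals here are the females S2, S4 and S5 and the male S3, while the C animals are all males. Cyp1b1, an enzyme of extrahepatic tissues for the most part, was at 5 counts or fewer in every animal of C and S, so no fold is given.

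The Cyp2j genes encode epoxygenases of arachidonic acid, and the values of Cyp2j13 and Cyp2j9 are given because they were seen to be high in S. Cyp2j13 was 11.4 to 16.2 CPM in C with a median of 13.5, and 18.3, 12.9, 18.0, 13.7 and 12.9 CPM in NS. In S it was 31.1, 23.7, 11.8, 28.2 and 26.4 CPM, so that 4 of 5 S animals lie above every other animal and S3 lies within the range of C. The log2 fold change was 0.85 ± 0.20 in S vs C (edgeR adjusted p 0.036, under the fold limit). Cyp2j9 had a log2 fold change of 1.58 ± 0.63 in S vs C that did not pass (edgeR adjusted p 0.139), and its highest value, 72.7 CPM in S4, compares with 1.18 to 21.9 CPM in the other 15 animals. Cyp2u1, a hydroxylase of long-chain fatty acids, gave 0.86 ± 0.31 (edgeR adjusted p 0.109). Cyp2j6 gave 0.11 ± 0.40.

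**Figure D3:**
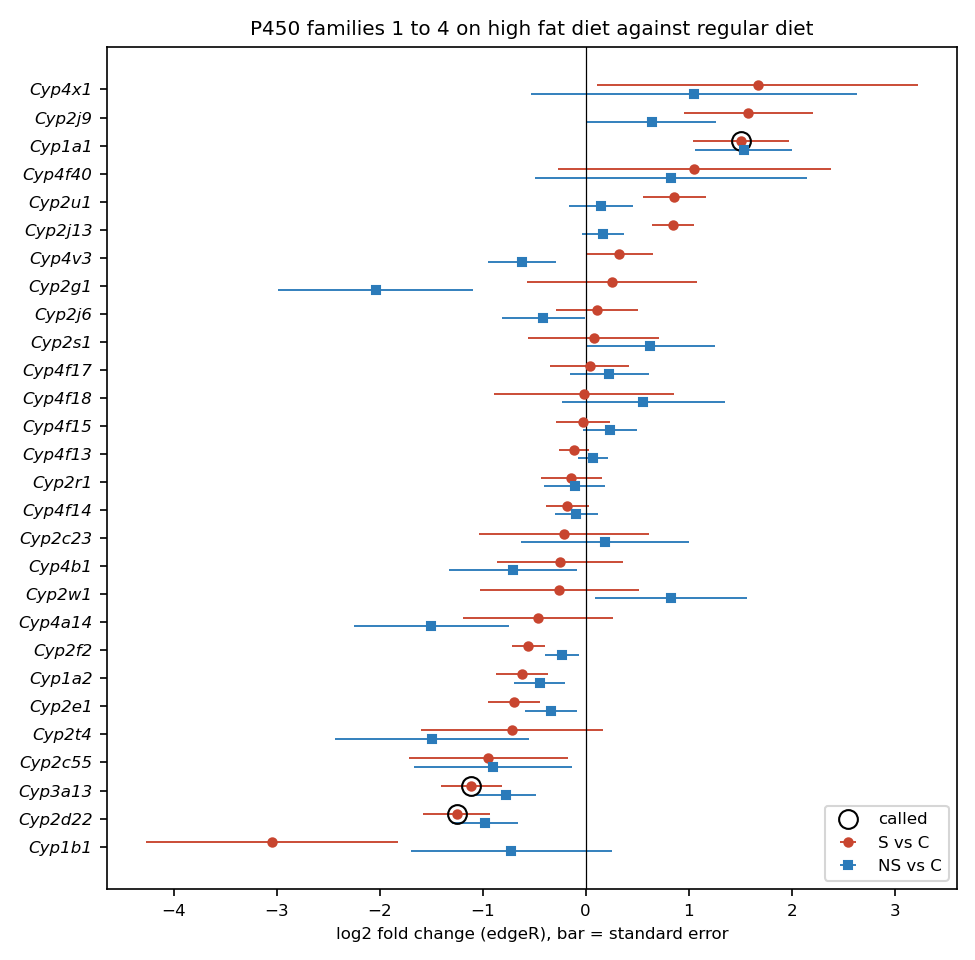
Log2 fold change with its standard error from the edgeR fit for the 28 tested P450 genes, in S vs C (circles) and NS vs C (squares), in the order of S vs C, with a ring around the 3 called genes. Both comparisons share the 6 C animals. Cyp3a13 and Cyp2d22 lie below 0 and Cyp1a1 above 0 in both, and rings stand at S vs C alone.

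The calls in S vs C depend on how sex is handled, since 3 of 5 S animals are female and no other group holds females. A fit with sex as a covariate therefore sets S against C through its 2 males, S1 and S3. In such a fit, a part of sex cannot be told apart from the smaller number of S animals. With sex as a covariate 1 gene was called, Cyp2g1, which had 0 counts in both of these males. None of the 3 passed, with directions kept: Cyp3a13 gave -0.82 (edgeR adjusted p 0.241), Cyp2d22 -0.96 (0.217) and Cyp1a1 1.41 (0.188). Without the smallest libraries, S2 and S3, a setting added after the data were seen, 1 gene was called, Cyp2j13, beside 114 of all genes in place of 513.

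The comparison of NS with C, the diet in livers without steatosis, called 0 of 28 genes beside 0.0712% of all genes. At an unadjusted p under 0.05 there were 4 of 28 beside 8.29% of all genes, and the median log2 fold change was -0.10 beside 0.01. DESeq2 also called 0 of the 28. The comparison of S with NS, both on HFD, called 0 of 28 genes beside 0.00791% of all genes, and DESeq2 also called 0. At an unadjusted p under 0.05 there were 4 of 28 beside 10.9%. The values of the genes called in S vs C were -0.34 ± 0.30 for Cyp3a13, -0.27 ± 0.34 for Cyp2d22 and -0.03 ± 0.47 for Cyp1a1 in S vs NS (log2 fold change ± SE).

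With both HFD groups set against C, 2 of 28 genes were called beside 0.894% of all genes. Cyp1a1 rose, with a log2 fold change of 1.52 ± 0.42 (edgeR adjusted p 0.0918), where 0.522% of all genes were called higher. Cyp2d22 fell, with -1.12 ± 0.27 (edgeR adjusted p 0.0596), where 0.372% of all genes were called lower. At the adjusted p limit alone Cyp3a13 was added, at -0.94 ± 0.24 (edgeR adjusted p 0.0756), giving 3 of 28 beside 2.71% of all genes. Without C1, C4, C6 or NS3, and without S2 and S3 together, no P450 gene was called in HFD vs C. Without C3, C5, NS1, NS2, S2 or S5, 1 was called, Cyp2d22. With sex as a covariate both calls were lost, at 1.47 for Cyp1a1 and -0.97 for Cyp2d22 (edgeR adjusted p 0.112 for each), and they were also lost in males only. In BW animals only, Cyp3a13 alone was called, at -1.20 (edgeR adjusted p 0.0212).

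The fatty acid hydroxylases of family 4 did not pass in any diet comparison. Cyp4a14, a PPAR-alpha target that hydroxylates fatty acids at the chain end, was 396.0 to 2143 CPM in C with a median of 1089, 652.9, 184.4, 440.0, 568.0 and 144.5 CPM in NS, and 441.2, 701.0, 7.51, 2092 and 838.4 CPM in S. S holds both an animal close to the highest of C and, in S3, the lowest of all. The log2 fold change was -1.50 ± 0.75 in NS vs C (edgeR adjusted p 0.629) and -0.46 ± 0.73 in S vs C (edgeR adjusted p 0.737). Ppara itself was 53.4 ± 17.8 CPM in C, 60.6 ± 27.4 in NS and 68.0 ± 20.5 in S. Of 16 other PPAR-alpha targets in the table, 2 were called higher in S vs C and none lower, beside 3.09% and 0.965% of all genes. They were the fatty acid transporter Cd36 and the fatty acid binding protein Fabp1. Fabp1 was also high in NS, with means of 2039 CPM in C, 6616 in NS and 5446 in S, though NS vs C did not pass (edgeR adjusted p 0.35). The median log2 fold change of the 16 in S vs C was -0.24 beside 0.10 for all genes. Cyp4v3, a fatty acid hydroxylase, was higher in S than in NS by 0.94 ± 0.34 on the log2 scale, which did not pass (edgeR adjusted p 0.374). Cyp2r1, a vitamin D 25-hydroxylase, gave -0.14 ± 0.30 in S vs C.

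Some genes of electron supply and of haem metabolism were lower in S than in C. On a list of 18 genes of electron supply and haem metabolism, all tested, 6 were lower in S vs C at the adjusted p limit alone and 1 was higher, beside 5.36% of all genes lower and 5.39% higher. Their median log2 fold change was -0.25 beside 0.10 for all genes. Por, the electron donor of all microsomal P450 enzymes, fell by 1.13 ± 0.37 on the log2 scale (edgeR adjusted p 0.0836). It was 1320 to 3620 CPM in C with a median of 1757, 424.5, 1738, 833.4, 2538 and 1259 CPM in NS and 590.3, 1264, 1129, 907.2 and 847.6 CPM in S. All 5 S animals lie below every C animal, as in 2.33% of all tested genes. NS overlaps both, with the SM2 animal NS1 the lowest of all. Cyb5a, the microsomal cytochrome b5, was 2636 to 3948 CPM in C with a median of 3365 and 2606, 1951, 1719, 2272 and 1635 CPM in S1 to S5, again with no overlap. Its log2 fold change was -0.73 ± 0.18 (edgeR adjusted p 0.0387). Pgrmc1, a haem-binding membrane protein that binds P450 enzymes, gave -0.60 ± 0.15 (edgeR adjusted p 0.0409), and its relative Pgrmc2 rose by 1.10 ± 0.22 (edgeR adjusted p 0.0207). The others lower at the adjusted p limit were Cyb5b, Hmox2 (haem oxygenase) and Blvra (biliverdin reductase). Blvra was 58.7 to 78.6 CPM in C and 33.7 to 41.3 CPM in S. Alas1, the rate-limiting enzyme of haem synthesis, had a log2 fold change of -0.19 ± 0.59 and did not pass. None of the 18 passed in NS vs C or in S vs NS. The call of Por was lost, with its direction kept, with sex as a covariate (log2 fold change -1.27, edgeR adjusted p 0.173), and in 8 of the 16 fits that leave out 1 animal, which were C4, C5, C6 and each of S1 to S5. The rest of the list was not followed under the alternatives.

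Among 22 receptors and factors that act on P450 genes, Nr1i3 (CAR) was the one lower in S vs C at the adjusted p limit alone, and none was higher, beside 5.36% of all genes lower. Nr1i3 was 187.8 to 349.7 CPM in C with a median of 227.5, 139.4, 180.9, 89.7, 358.1 and 178.9 CPM in NS and 169.0, 110.8, 113.4, 158.3 and 92.1 CPM in S. Every S animal lies below every C animal, as in 2.33% of all tested genes, and NS holds both the lowest and the highest value of all. The log2 fold change was -0.93 ± 0.29 (edgeR adjusted p 0.0729), and -0.79 with sex as a covariate (edgeR adjusted p 0.259). Nr1i2 (PXR) gave -0.07 ± 0.15. Of 15 other tested targets of CAR, PXR and the aryl hydrocarbon receptor, 3 were lower at the adjusted p limit alone (the transporter Abcb1a, the glutathione transferase Gstm2 and the aldehyde dehydrogenase Aldh3a1) and none was higher, beside the same 5.36% of all genes lower, and their median log2 fold change was -0.14. Aldh3a1 and Cyp1a1, which share the aryl hydrocarbon receptor as regulator, thus had opposite directions, and Aldh3a1 was at 2.60 CPM or less in every animal but C5, where it was 52.4 CPM. Of the 13 tested P450 genes of other families, Cyp7b1, an oxysterol hydroxylase of bile acid synthesis, fell in S vs C (log2 fold change -1.74 ± 0.47, edgeR adjusted p 0.0497), and the sterol 27-hydroxylase Cyp27a1 was lower at the adjusted p limit alone. Of the epoxide hydrolases, which act on epoxides that P450 enzymes form, 1 was tested, and it did not pass.

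The share of P450 genes called between the stocks was near that of all genes. Of the genes called, Cyp2d22 was also called by diet. SM2 against BW, with group and sex as covariates, called 4 of 28 genes (14.3%), beside 11.0% of all tested genes. Cyp2j6, Cyp4x1 and Cyp2d22 were higher in SM2 (3 of 28, beside 5.84% of all genes) and Cyp4b1 was lower (1 of 28, beside 5.21%). At the adjusted p limit alone 7 of 28 passed, beside 20.8% of all genes, and the 3 added were Cyp4f14, Cyp4f15 and Cyp4f17, all higher in SM2. The median log2 fold change was 0.21 beside -0.03 for all genes. SM2 is represented by 1 animal per group, and all reads were aligned to 1 reference genome, so that a difference in sequence between the stocks cannot be told apart from a difference in level.

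Cyp2j6, an arachidonic acid epoxygenase, was 664.1, 347.8 and 822.1 CPM in C1, NS1 and S1 and 131.0 to 442.9 CPM in the 13 BW animals, with a median of 244.7. C1 and S1 lie above every BW animal and NS1 lies within their range. The log2 fold change was 1.37 ± 0.30 (edgeR adjusted p 0.00752). Without S1, or without S3, it was 1.00, just under the fold limit, at edgeR adjusted p of 0.0274 and 0.0272.

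Cyp4x1, whose known substrates include the endocannabinoid anandamide, had 8, 32 and 50 counts in C1, NS1 and S1. Of the 13 BW animals, 10 had 0 counts and the others had 1, 2 and 9. The gene passed the filter through the SM2 animals and C6, a BW animal whose 1.00 CPM is above the 0.787 CPM of C1. The fitted log2 fold change was 4.74 ± 1.10 (edgeR adjusted p 0.0116), and 2.85 without NS1, where the call was lost (edgeR adjusted p 0.302). Cyp4b1, which hydroxylates medium-chain fatty acids and activates protoxicants, had the opposite pattern. It was 22.1, 57.2 and 19.0 CPM in C1, NS1 and S1 and 57.1 to 408.7 CPM in BW, with a median of 171.8 and a log2 fold change of -2.33 ± 0.54 (edgeR adjusted p 0.00996). Both genes lie on the same chromosome of a later deer mouse assembly in RefSeq, with 4 annotated genes between them.

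**Figure D4:**
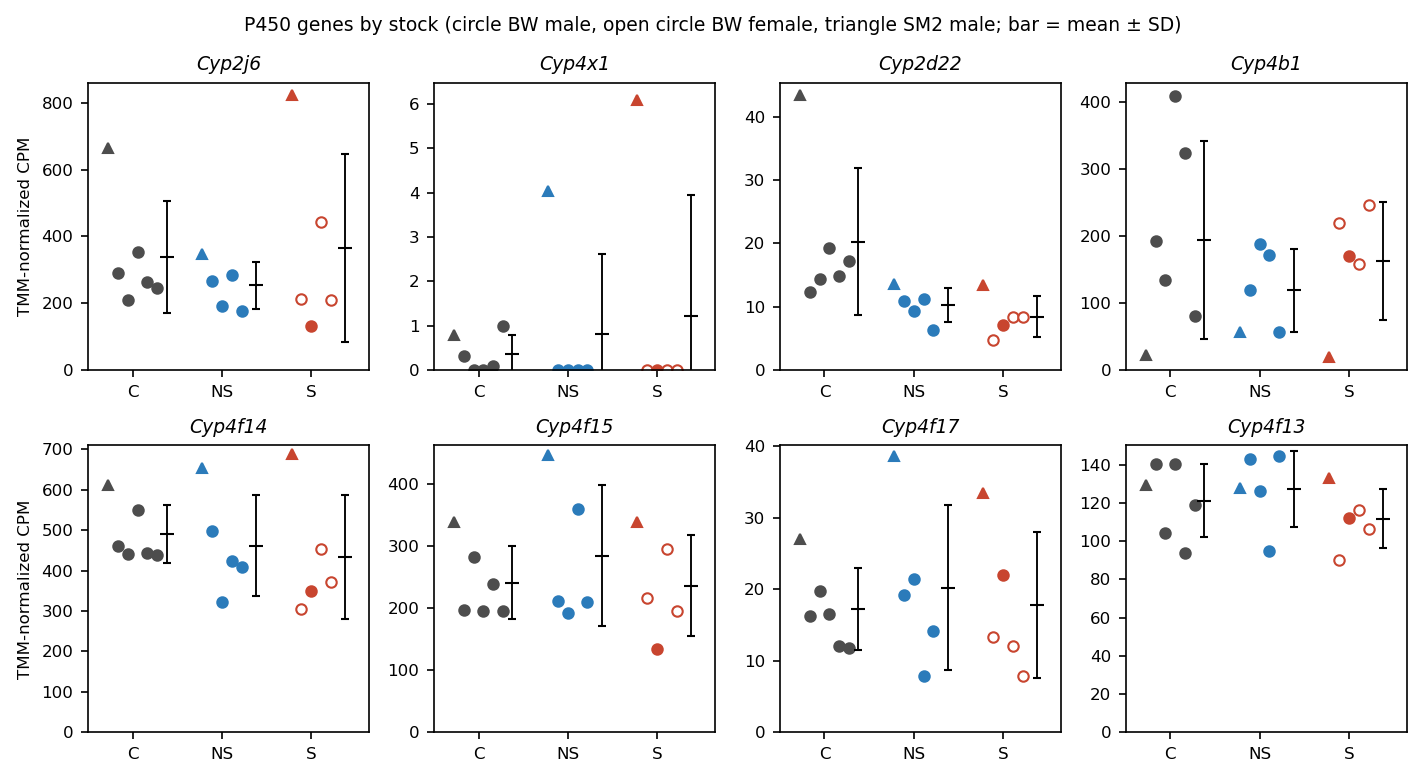
TMM-normalized CPM of 8 P450 genes in every animal by diet group, with triangles for SM2 males, circles for BW males, open circles for BW females and a bar for the mean ± SD of each group, drawn from 0 upwards. The SM2 animals lie above every BW animal for Cyp4f14 and Cyp4f17, and Cyp4f13 (90.4 to 144.6 CPM in all 16 animals) is shown as a gene of the same subfamily that did not pass.

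Cyp2d22 was 43.4, 13.6 and 13.5 CPM in the SM2 animals and 4.82 to 19.3 CPM in BW, with a log2 fold change of 1.04 ± 0.22 (edgeR adjusted p 0.00596). The ranges overlap, and within each diet group the SM2 animal is the highest. Without C1 the log2 fold change was 0.67 and the call was lost (edgeR adjusted p 0.13), and without C2 it was 0.99, under the fold limit, at an edgeR adjusted p of 0.00905. The Cyp4f enzymes hydroxylate and inactivate leukotriene B4 and related eicosanoids. Cyp4f14 was 610.5, 653.6 and 689.1 CPM in SM2 and 305.4 to 548.8 CPM in BW (log2 fold change 0.64 ± 0.16, edgeR adjusted p 0.017). Cyp4f15 and Cyp4f17, named because they passed the adjusted p limit, gave 0.88 ± 0.21 (edgeR adjusted p 0.01) and 0.97 ± 0.25 (edgeR adjusted p 0.0169). Cyp4f14 and Cyp4f17 were the genes with every SM2 animal above every BW animal, 2 of 28 beside 6.81% of all genes with no overlap. As close relatives, the Cyp4f genes may share reads that were then not counted, so these values are uncertain. Outside the P450 genes, 6 of 18 pericentral genes were higher in SM2 at the adjusted p limit alone, beside 11.2% of all genes, and none was lower, with a median log2 fold change of 0.64. Of 16 PPAR-alpha targets other than P450, 5 were lower at that limit, beside 9.64% of all genes, and none was higher, with a median of -0.67.

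Females and males can be compared only within S, as 3 against 2 animals. With group and stock as covariates 0 of 28 P450 genes were called, beside 1.21% of all genes, and 5 of 28 had an unadjusted p under 0.05 beside 11.5%. DESeq2 called 3, Cyp4a14, Cyp2j9 and Cyp4v3, all with higher values in females. Cyp4v3 was 168.8, 259.7 and 120.3 CPM in S2, S4 and S5 and 113.7 and 40.0 CPM in the males S1 and S3 (log2 fold change 1.59 ± 0.45, edgeR adjusted p 0.132). Cyp2g1, best known from the olfactory mucosa, had 12, 9 and 9 counts in the females, 0 in both males of S and 0 to 8 in the males of C and NS (edgeR adjusted p 0.147). A1bg, a gene with female-biased expression in mouse liver, was at 128.3 to 380.6 CPM in the 3 animals labelled female and at 17.7 CPM or less in all males. It comes from a list of genes other than P450 with sex bias in mouse liver, of which 6 were tested. Of these, 1 was called higher in females (A1bg) and 1 lower (Fmo2), beside 1.21% of all genes in either direction. Their median log2 fold change was -0.25 beside 0.02 for all genes. S3, with its high collagen counts, is 1 of the 2 males. It had the lowest value of all animals for Cyp4a14 (7.51 CPM) and Cyp4v3, which DESeq2 called. A fit without S3 was run, but it leaves S1, an SM2 animal, as the only male of S. It therefore cannot show the part of S3 in this comparison.

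P450 genes varied widely among animals of the same group. The SD of log2 CPM within groups was above the median of all tested genes (0.455) for 22 of 28. It was taken around the means of C, NS and S, so differences between stocks and between sexes are part of it. Among the 19 with a mean over 10 CPM, 8 (42.1%) were in the top 10% of the 6680 genes at that level. Cyp4a14 had an SD of 1.89, and over all animals the highest, C6, was 285 times the lowest, S3. Without S3 the SD was 0.90 and the ratio 14.8. Cyp2c23, an arachidonic acid epoxygenase, had an SD of 1.86 and a ratio of 151, with 367.9 CPM in C1 and 2.44 CPM in S3, and without S3 an SD of 1.43 and a ratio of 25.2. At the other end, Cyp2f2 had an SD of 0.24 and a ratio of 2.11. Of the 19 genes with more than 3 counts in every animal, 7 had their lowest value in S3, which were Cyp2c23, Cyp4a14, Cyp1a2, Cyp3a13, Cyp4v3, Cyp2j6 and Cyp4f15, against at most 3 in any other animal.

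**Figure D5:**
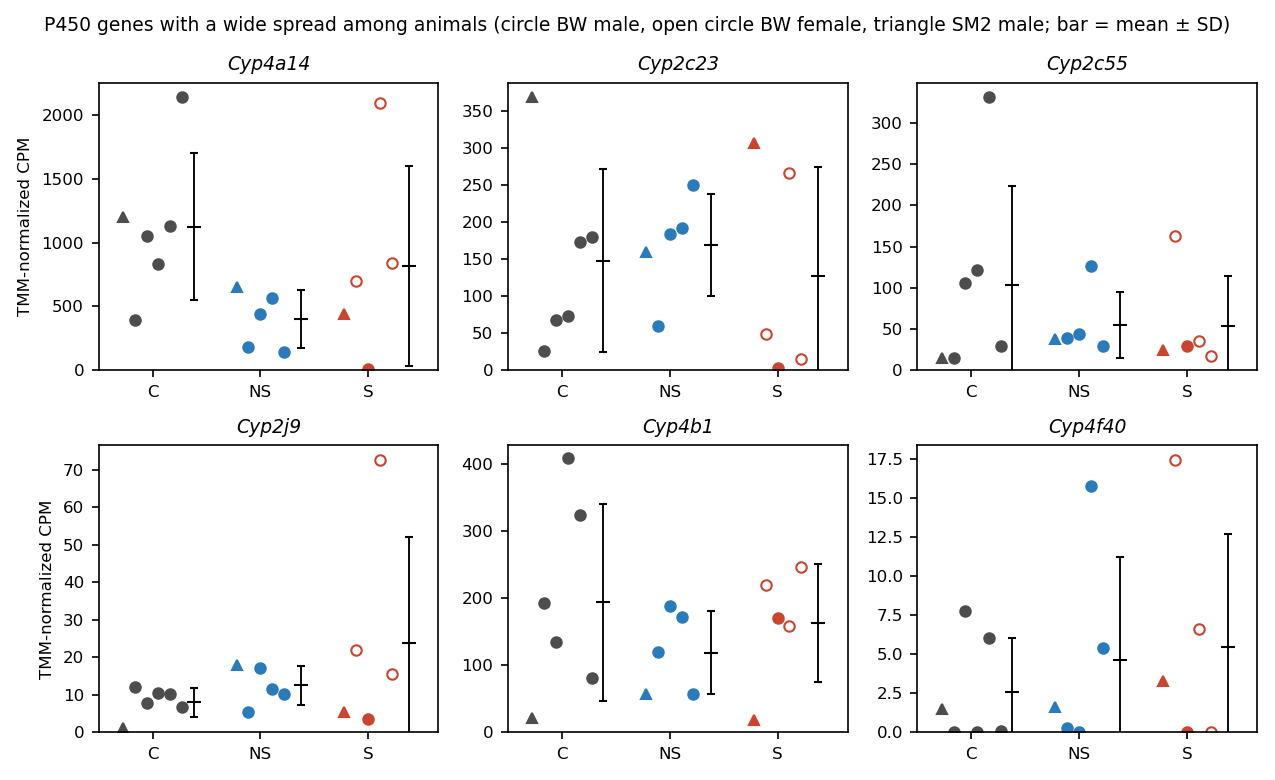
TMM-normalized CPM of 6 P450 genes with a wide spread among animals, by diet group, with circles for BW males, open circles for BW females, triangles for SM2 males and a bar for the mean ± SD of each group, drawn from 0 upwards. S3 is the filled circle of S, at 7.51 CPM for Cyp4a14 and 2.44 CPM for Cyp2c23.

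Cyp2s1, Cyp2t4, Cyp2w1, Cyp2g1, Cyp1b1 and Cyp4f18, the last named after its counts were seen, had at most 18 counts in any animal, and none was called in the 6 comparisons as fitted. Cyp2g1 was called in S vs C and in HFD vs C with sex as a covariate and in males only. Their standard errors on the log2 scale were 0.64 to 1.23 in S vs C, against 0.30 for Cyp3a13.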

How the data were processed

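Liver RNA of 16 deer mice (6 C, 5 NS, 5 S) was sequenced as directional paired-end libraries. The authors aligned reads to HU_Pman_2.1 with STAR 2.7.2, took uniquely mapped reads, summed them over genes by featureCounts and deposited the raw counts. The strand setting of the counting and the conversion to symbols are not given in the sources used here, so overlapping genes and close paralogs are uncertain. Groups came from the labels, and 0 columns were left unmapped. From the counts, edgeR 4.0.16 (R 4.3.3, TMM, quasi-likelihood test, Benjamini-Hochberg adjustment over 12639 genes) was fitted to all 16 animals, without covariates for diet and with group, sex and stock as terms for stock and sex. A call required an adjusted p under 0.1 and a change of at least 2 times. CPM are TMM-normalized. Log2 fold changes are edgeR estimates from these counts. The members and gene lists were chosen with earlier results of these data known. Members named are those called, the most abundant of each subfamily and a set of well-known ones, and others are marked where first described. As alternatives, RLE size factors, DESeq2 1.42.0, other filters and limits, covariates, subsets and each animal left out were tried. Exon lengths and sequences were not used here, so levels of different genes are not compared. With 4640733 to 11349971 counts per library, counting error dominates the genes with a handful of counts. Each animal is 1 replicate.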

Additional observations from a re-analysis of the deposited data

Results flagged for a closer look

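Groups of 5 or 6 animals were searched for an animal set apart from the others, in the 28 tested P450 genes, 15 other genes named with values and the summed P450 share. Of 129 groups, 19 held one. Chance flags about 1 in 20 groups of normally distributed values, but CPM are skewed and some of these genes were named because 1 animal stood apart, so the number is not read against that rate. In 7 of the 19 the animal was of the SM2 stock. In C, Cyp2j6 was at 664.1 CPM in C1, with the next animal at 354.1 CPM, and Cyp2d22 was at 43.4 CPM in C1, with the next at 19.3 CPM. Cyp4x1 was at 4.03 CPM in NS1 and at 6.09 CPM in S1, with every other animal of NS and S at 0 counts. The summed share of the P450 genes in NS was 2.44% in NS1 (95% Wilson interval 2.43 to 2.45%, counting error only), with the other 4 animals at 3.52 to 3.78%. Cyp2c55 had 1 high animal in each group, at 331.0 CPM in C5, 126.2 CPM in NS4 and 162.3 CPM in S2, with the next at 121.5, 44.0 and 35.6 CPM. Cyp2j9 was at 72.7 CPM in S4, with the next S animal at 21.9 CPM. Flags of low counts were Cyp1b1 at 0.691 CPM (7 counts) in NS3 and Cyp2t4 at 0.763 CPM (8 counts) in S5.

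Among the other genes, Col1a1 was at 2057 CPM in S3, Aldh3a1 at 52.4 CPM in C5 and 1.05 CPM in S5, and A1bg at 2.66 CPM in C1. Pgrmc2 was lowest in NS4 at 58.1 CPM, with the next NS animal at 97.2 CPM, and Alas1 was lowest in C2 at 244.8 CPM, with the next C animal at 709.2 CPM. Cyp8b1 was at 1768 CPM in C6, with the next C animal at 594.6 CPM, and at 248.2 CPM in NS1, with the next NS animal at 26.9 CPM.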

How the results depend on the processing

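No direction was reversed in 498 values of 19 gene results under the alternatives. The genes were Por, Nr1i3 and the P450 genes that had passed the adjusted p limit in the main fit. Alternatives that change only the limits cannot reverse a direction, so the absence of reversals was in part fixed beforehand. Of the 498 values, 409 kept their side of the limits, 65 lost it and 24 gained it. The number of P450 genes called in S vs C was 3, and became 5 with no limit on fold change, 1 (Cyp2g1) with sex as a covariate or in males only, 1 (Cyp2j13) without S2 and S3 together (chosen after seeing the data), and 1 to 5 with each animal left out. It was 1 without C1 (Cyp3a13) or C6 (Cyp2d22), and 5 without S1. Cyp3a13 lost its call without C6 or S3, and Cyp1a1 without C1, C4, C5, C6, S2, S3 or S5. In HFD vs C the number was 2, and became 1 with no filter on low counts, 0 at an adjusted p under 0.05, 1 (Cyp2g1) with sex as a covariate or in males only, 1 (Cyp3a13) in BW animals only, 0 without S2 and S3 together and 0 to 3 with each animal left out. In SM2 vs BW it was 4, and became 7 with no limit on fold change and 3 to 7 with each animal left out, the 7 without C1. In female vs male it was 0, and became 3 with DESeq2, 4 in BW animals only and 0 to 4 with each animal left out (3 without C1, 1 without NS1, 4 without S1). In NS vs C and S vs NS it was 0 under all alternatives run. With all of these alternatives, each animal left out included, counts over all genes went from 513 to between 114 and 1359 in S vs C, from 9 to between 2 and 53 in NS vs C, from 1 to between 0 and 191 in S vs NS, from 113 to between 36 and 343 in HFD vs C, from 1396 to between 768 and 2630 in SM2 vs BW and from 153 to between 24 and 650 in female vs male. The cause was not tested. No paired analysis was possible because the labels carry no replicate numbers.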

Other observations

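Cyp4f40, chosen after its values were seen, had low and high animals within each diet group. It had at most 2 counts in 7 animals and 13 to 130 counts in the other 9, of which 3 are in C, 3 in NS and 3 in S, and all 3 SM2 animals are among them. Its within-group SD of log2 CPM was 2.54, higher than in 99.9% of the tested genes. Cyp2c55, a Cyp2c gene that was also chosen after its values were seen, ranged from 14.4 CPM in C1 to 331.0 CPM in C5, both on regular diet.

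Among P450 genes of other families, Cyp8b1, the sterol 12-alpha-hydroxylase of bile acid synthesis, was 143.8 to 1768 CPM in C and 136.4, 48.1, 346.2 and 504.6 CPM in the BW animals of S (S2 to S5). In NS it was 20.4, 5.43, 19.4 and 26.9 CPM in the BW animals and 248.2 CPM in the SM2 animal NS1. The 4 BW animals of NS lie below every other animal. NS vs C gave a log2 fold change of -3.11 ± 0.94 that did not pass (edgeR adjusted p 0.402), and SM2 vs BW gave 2.56 ± 0.90, which was called (edgeR adjusted p 0.0689). Only in NS did the SM2 animal lie above the BW animals. In C the SM2 animal C1 was the lowest, at 143.8 CPM, and S1, at 382.1 CPM, lay within the range of the BW animals of S.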
